A study of Mus musculus with 12 samples.

Results

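Genes of mitosis and chromosome segregation were followed in C2C12 mouse myoblasts, as a list of 56 symbols for mitotic cyclins, kinases, kinetochore, spindle, condensin and anaphase proteins. The members were taken by their symbols in the probe annotation and not by their measured values. The list was nevertheless chosen with earlier results of these data known. The array's annotation names 19057 genes, 54 of the 56 among them with 107 probes in all, and no probe is annotated to Ccnb1 and Mki67. Of these probes 77 were kept, each above background on 3 or more of the 12 arrays, and 47 members were thus among the 10653 genes tested. The other 7 members with a probe had no value to compare: Ccnb2, Bub1, Hmmr, Kif20a, Racgap1 and Fbxo5 were above background on 0 arrays and Cenpe on 1.

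A dividing cell enters mitosis when cyclin-bound CDK1 becomes active, and the Aurora and Polo-like kinases then build the spindle. Kinetochores, assembled on CENP-A chromatin, hold the chromosomes to spindle microtubules, and the spindle checkpoint keeps the anaphase-promoting complex inactive until every chromosome is attached. Condensin compacts the chromosomes, CDC20 and separase release the sister chromatids, and central spindle proteins drive cytokinesis. Most of these genes are transcribed late in the cell cycle through CHR and CCAAT promoter elements, which bind the MuvB complex with its partners B-MYB, FOXM1 or RB family proteins and the factor NF-Y. Myoblasts leave the cell cycle before they fuse into myotubes, and miR-206 is a muscle microRNA that accumulates during that step.

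Day1 and Day2 cells were C2C12 cells kept for 24 h and 48 h in differentiation medium, which contained 2% horse serum. The mimic group had received an siRNA mimicking miR-206 and was cultured for 24 h, and the antimiR group had received antimiR-206 and was cultured for 48 h, with 3 Illumina bead arrays of total RNA in each of the 4 groups. Every group was of the same cell line, and a lipid transfection protocol is recorded for all samples. A control oligonucleotide is not mentioned in the labels for Day1 or Day2, and the medium of the transfected cells is not given. They call the Day1 and mimic cells undifferentiated and the Day2 and antimiR cells at the beginning of differentiation. Nothing in them says that replicates were separate cultures, so the p-values below measure the spread between arrays that may be technical repeats.

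The mature strand of mouse miR-206 is shown with its seed, bases 2 to 8, in capitals, because the mimic and antimiR-206 are named for it. RefSeq places it at chr1:20679055-20679076 of GRCm38.p6 on the plus strand, and the labels do not give the sequences of the oligonucleotides themselves.
mmu-miR-206-3p: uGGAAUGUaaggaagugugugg

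The arrays fell into 3 sets across all genes. The Day2 arrays lay at 73.97 to 80.28 on a first principal component that held 75.2% of the variance. The other 9 lay at −36.6 to −10.5. On a second component, with 15.15%, the Day1 arrays and mimic replicate 1 lay at −26.05 to −19.21. Mimic replicates 2 and 3 lay with the antimiR arrays, at 14.92 to 28.2. Mimic replicate 1 stood apart from its group: its mean correlation across genes was 0.993 with the Day1 arrays and 0.971 with the other mimic arrays, so mimic results are given with and without it. The myoblast markers Myod1, Des, Cdh15 and Vcam1 were above background in every group, while Myf5 and Pax7 were above background on no array. Over all 6 myoblast markers the summed normalized intensity was 3240 to 3353 on Day1, 16380 to 17440 on Day2, 3221 to 6166 on mimic and 4583 to 6369 on antimiR arrays. Summed over 6 probed myotube markers, normalized intensity was 163 to 264 on Day1 arrays, 54960 to 60560 on Day2 arrays, 189 to 277 on mimic arrays and 216 to 260 on antimiR arrays. The myotube markers of the antimiR arrays thus lay in the range of the arrays labelled undifferentiated, against their own label. Median raw intensity was 49.5 to 63.2, and 36.7% to 40.3% of probes were above background on an array.

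RefSeq promoters of 47 of the 56 members were searched, each from 250 bases before to 50 bases after the gene's start in GRCm38.p6. The CHR letters TTTGAA or TTCGAA stood on either strand in 37 of the 47 (78.7%), against 21.7% of 27025 genes. CCAAT stood on either strand in 37 (78.7%), against 41.1% of genes, and 33 promoters (70.2%) held both motifs, against 8.61% of genes. The E2F letters TTCCCGC or TTGGCGC were in 10 (21.3%), against 7.79%, and a match may share bases with a CCAAT match on the other strand. Such a match is a description of the letters and not a binding site.

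The promoters of Cdc20, Birc5 and Cdca8 are printed as those of the members with the largest falls from Day1 to Day2 that had a promoter in the table. Bub3 is printed as the member with the smallest fall among those above background on all 12 arrays. Capitals mark CHR and CCAAT letters on either strand, and ATTGG and TTCAAA are the other-strand forms of CCAAT and TTTGAA. The regions are chr4:118437294-118437593 on the minus strand for Cdc20, chr11:117848987-117849286 on the plus strand for Birc5, chr4:124936868-124937167 on the minus strand for Cdca8 and chr7:131560120-131560419 on the plus strand for Bub3.
Cdc20: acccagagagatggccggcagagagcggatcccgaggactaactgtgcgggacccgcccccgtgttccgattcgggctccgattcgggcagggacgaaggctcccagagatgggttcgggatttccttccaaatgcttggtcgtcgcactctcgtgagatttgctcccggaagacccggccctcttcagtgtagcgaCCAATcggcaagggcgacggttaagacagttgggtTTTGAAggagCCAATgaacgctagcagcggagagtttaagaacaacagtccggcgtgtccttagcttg
Birc5: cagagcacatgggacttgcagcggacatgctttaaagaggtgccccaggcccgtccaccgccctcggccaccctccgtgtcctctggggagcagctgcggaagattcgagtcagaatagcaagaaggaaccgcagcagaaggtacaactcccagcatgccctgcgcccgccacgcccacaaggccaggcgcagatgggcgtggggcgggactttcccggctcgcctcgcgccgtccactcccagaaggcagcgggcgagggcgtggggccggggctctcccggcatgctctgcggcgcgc
Cdca8: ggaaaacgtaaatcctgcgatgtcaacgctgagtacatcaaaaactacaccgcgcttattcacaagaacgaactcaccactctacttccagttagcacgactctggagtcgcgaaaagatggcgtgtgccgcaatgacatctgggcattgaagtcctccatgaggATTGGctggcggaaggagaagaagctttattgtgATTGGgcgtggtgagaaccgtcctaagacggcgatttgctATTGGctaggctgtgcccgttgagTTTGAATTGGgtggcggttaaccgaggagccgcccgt
Bub3: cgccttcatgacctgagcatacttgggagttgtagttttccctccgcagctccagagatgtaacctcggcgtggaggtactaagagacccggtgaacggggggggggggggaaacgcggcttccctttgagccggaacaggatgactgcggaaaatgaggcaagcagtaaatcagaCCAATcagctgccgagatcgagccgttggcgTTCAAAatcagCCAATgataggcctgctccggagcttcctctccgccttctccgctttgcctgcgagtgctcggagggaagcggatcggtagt
The Cdc20 window holds a CHR match at base 233, between CCAAT matches at bases 198 and 243, counted from 1 at the 5′ end of the window. Bub3 has the same arrangement, with a CHR match at base 208 between CCAAT matches at bases 177 and 219. Cdca8 has 4 CCAAT matches, and the last of them shares a base with its CHR match. Birc5 has 0 matches to either motif in this window.

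Between 24 h and 48 h in differentiation medium the mitotic genes fell together. Of the 47 tested members 46 fell and 0 rose in limma's test with Benjamini-Hochberg adjustment, where 29% of all 10653 genes fell and 28.2% rose, and Kif23 did not pass. All 46 with an unadjusted p under 0.05 were lower on Day2. The median log2 change of the 47 tested members was −2.79, against −0.02 for all genes. A fall of at least 2-fold was measured for 39 members, against 9.79% of genes, and a fall of at least 4-fold for 35, against 2.39%. For 46 members every Day2 array was below every Day1 array, which was so for 33.6% of genes. Of the 47, 15 were below background on some array, mostly of the Day2 group, and could pass the detection filter through the other groups. On the Day2 arrays Cdc25c, Smc4 and Pttg1 were above background on 1 of 3 and Tpx2, Cenpf, Cenph, Kif11, Ect2 and Cdca5 on 2 of 3, so their changes below rest in part on values at background. Among the 32 members above background on all 12 arrays, 31 fell, against 33.6% of the 7920 genes detected that way. The median change of the 32 was −3.17.

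**Figure D1:**
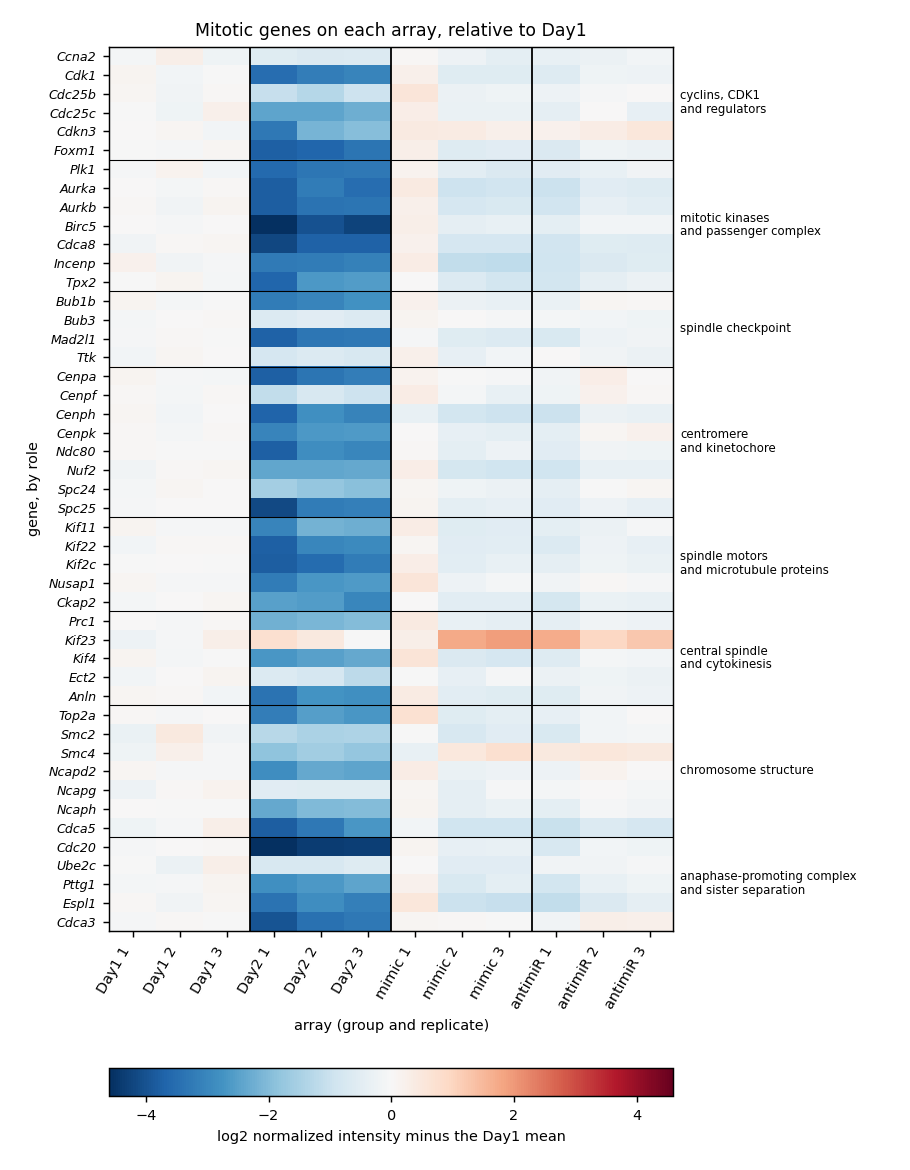
Log2 normalized intensity of the 47 tested mitotic genes on each of the 12 arrays, minus the gene's Day1 mean, with genes in rows by role and arrays in columns by group and replicate. The Day2 columns are blue in every row but that of Kif23, and mimic replicate 1 resembles the Day1 columns more than the other mimic columns.

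Fewer dividing cells and less mitotic RNA per cell cannot be told apart in these bulk samples. The median member lay −3.21, −2.64 and −2.61 from its Day1 mean on Day2 replicates 1, 2 and 3, and 33, 39 and 39 members were above background on them. Day2 replicate 1 was thus the lowest of its group, and without it 46 members still fell. Summed markers of other cell types also differed, and their part in the fall was not tested. The sums rest on few genes, as many of these markers had no kept probe, and they include the background signal of such probes. Of those tested, the osteoblast markers Bglap2 and Bglap rose by 1.90 and 0.64 on Day2. The macrophage marker Cd14 fell by 1.00 and the adipocyte marker Pparg by 0.51. Alpl and Csf1r did not pass, and 0 endothelial markers were tested. Over 5 probed osteoblast markers the summed intensity was 168 to 214 on Day1 and 422 to 544 on Day2 arrays, with Sp7 and Ibsp never above background. On mimic arrays it was 168 to 268 and on antimiR arrays 207 to 298. For 5 macrophage markers it was 194 to 221 on Day1, 140 to 157 on Day2, 208 to 227 on mimic and 244 to 246 on antimiR arrays, with Adgre1 and Ptprc never above background. For 5 adipocyte markers it was 232 to 269, 193 to 211, 171 to 222 and 170 to 199 in the same order, with Fabp4, Plin1 and Cidec never above background. For 5 endothelial markers it was 108 to 110, 103 to 107, 101 to 103 and 100.1 to 109.4, with Pecam1, Cdh5 and Tie1 never above background. On mimic and antimiR arrays 0 of the 5 were above background, so those sums are background signal.

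**Figure D2:**
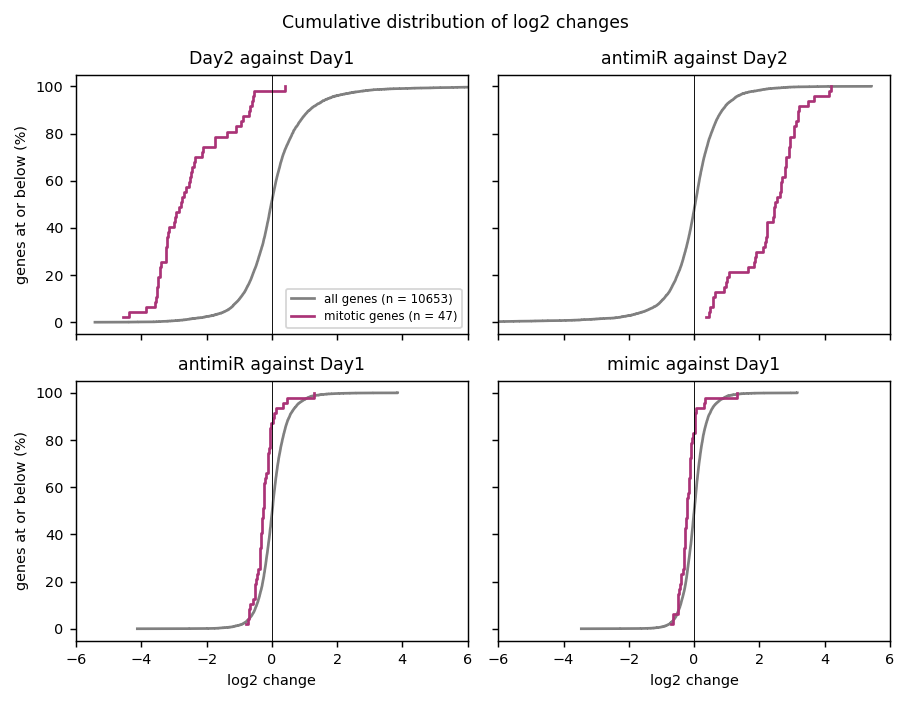
Cumulative percentage of genes (vertical axis) at or below each log2 change (horizontal axis) in the 4 comparisons, for the 47 mitotic genes and for all 10653 genes tested, with the horizontal axis cut at −6 and 6. The mitotic curve lies far to the left of all genes for Day2 against Day1 (median −2.79), far to the right for antimiR against Day2 (median 2.49), and slightly to the left in the comparisons of antimiR and mimic with Day1 (medians −0.28 and −0.22).

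All 6 tested genes of the cyclin and CDK1 group fell, with a median log2 change of −2.42. Foxm1, a forkhead transcription factor that activates late cell cycle genes, had log2 normalized intensities of 9.07, 9.03 and 9.17 on the Day1 arrays and 5.33, 5.45 and 5.72 on the Day2 arrays. It stood at 9.36, 8.49 and 8.56 on mimic arrays and at 8.44, 8.90 and 8.83 on antimiR arrays. The Day2 arrays were more than 2 log2 units below the rest, and the antimiR arrays lay just under the Day1 range. Foxm1 was 12.01-fold lower on Day2 than on Day1 (log2 change −3.59, SE 0.20, limma adjusted p = 6.16e-09). Cdk1, the mitotic kinase itself, fell by 3.24 on the log2 scale (SE 0.20), Cdkn3, a phosphatase that acts on CDKs, by 2.46 (SE 0.25) and Cdc25c, which activates CDK1, by 2.37 (SE 0.19). Cdc25b, the related phosphatase, fell by 1.11 (SE 0.19).

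The smallest change of that group was that of Ccna2, cyclin A2, whose probe was dim. It stood at 4.80, 5.16 and 4.69 on Day1, at 4.32, 4.22 and 4.26 on Day2, at 4.94, 4.64 and 4.44 on mimic and at 4.55, 4.62 and 4.74 on antimiR arrays. Ccna2 passed background on 2 arrays of Day1 and on 0 of Day2, so its fall is known only as at least 1.15-fold (limma adjusted p = 0.00326). That bound, like the others below, sets the brighter group's mean against the Day2 arrays with each value raised to the lowest signal above background on its array.

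Among the mitotic kinases and the chromosomal passenger complex, all 7 members fell, with a median of −3.50. Birc5, survivin, which carries the passenger complex to centromeres, had values of 11.74, 11.69 and 11.77 on Day1 and 6.87, 7.74 and 7.47 on Day2 arrays. On mimic arrays it stood at 11.99, 11.32 and 11.41, and on antimiR arrays at 11.27, 11.60 and 11.61. Only the Day2 arrays were low, and Birc5 was 20.8-fold lower there than on Day1 (log2 change −4.38, SE 0.20, limma adjusted p = 8.91e-10). Its partners fell with it: Cdca8, borealin, by 3.87 (SE 0.22), the complex's kinase Aurkb fell by 3.52 (SE 0.24) and the scaffold Incenp fell by 3.20 (SE 0.29). Plk1 and Aurka, kinases of spindle assembly, fell by 3.40 (SE 0.18) and 3.50 (SE 0.29). The smallest fall was that of Tpx2, an activator of Aurora A, with 8.17, 8.31 and 8.08 on Day1 and 4.53, 5.56 and 5.61 on Day2 arrays. Tpx2 stood at 8.21, 7.56 and 7.35 on mimic and 7.36, 7.78 and 7.90 on antimiR arrays. Its Day2 arrays did not overlap any other group, and it was 7.75-fold lower on Day2 than on Day1 (SE 0.28 on the log2 scale, limma adjusted p = 8.65e-07).

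The spindle checkpoint genes were split by size, with 4 of 4 lower and a median of −1.86. Mad2l1, the checkpoint protein that binds and holds CDC20, stood at 10.70, 10.83 and 10.76 on Day1 and at 7.06, 7.44 and 7.48 on Day2 arrays. It was at 10.70, 10.23 and 10.14 on mimic and at 10.06, 10.52 and 10.62 on antimiR arrays. It was 10.9-fold lower on Day2 (log2 change −3.44, SE 0.17, limma adjusted p = 1.78e-09). Bub1b, BubR1, another part of the inhibitory complex, fell by 3.02 (SE 0.16). Bub3, the kinetochore adaptor of the Bub proteins, changed least: 8.0, 8.12 and 8.15 on Day1 against 7.45, 7.57 and 7.47 on Day2. On mimic arrays it was at 8.20, 8.10 and 8.04, and on antimiR arrays at 8.01, 7.97 and 7.91. The Day2 arrays were still the lowest 3 of the 12, and Bub3 fell by 0.59 (SE 0.10, limma adjusted p = 2.00e-04). With arrays scaled to a common median that call was lost at a change of −0.75 (adjusted p = 0.402, against 6.13e-06 to 0.402 among all alternatives). Ttk, the kinase MPS1, was above background on 0 Day2 arrays and was at least 1.30-fold lower.

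All 8 tested centromere and kinetochore genes fell, with a median of −2.98. Spc25, a subunit of the NDC80 complex that grips microtubules, had values of 9.30, 9.38 and 9.39 on Day1 and 5.21, 6.15 and 6.20 on Day2 arrays. It stood at 9.49, 8.89 and 8.97 on mimic and at 8.83, 9.13 and 8.98 on antimiR arrays, so that only the Day2 arrays were far from the rest. It was 11.4-fold lower on Day2 (log2 change −3.51, SE 0.23, limma adjusted p = 2.41e-08). The other subunits of that complex fell by 3.21 (Ndc80, SE 0.20) and 1.76 (Spc24, SE 0.15), and Nuf2, above background on 0 Day2 arrays, was at least 4.06-fold lower. Cenpa, the histone H3 variant that marks centromeres, fell by 3.44 (SE 0.15), from 12.77 ± 0.12 to 9.32 ± 0.30 (mean ± SD, n = 3). Cenph, an inner kinetochore protein, stood at 8.07, 7.85 and 7.99 on Day1, 4.27, 5.14 and 4.88 on Day2, 7.64, 7.11 and 7.0 on mimic and 6.97, 7.71 and 7.64 on antimiR arrays. All mimic and antimiR arrays of Cenph lay below the Day1 range and far above the Day2 range. It fell by 3.20 (SE 0.24) from Day1 to Day2, and Cenpk, of the same complex, fell by 2.76 (SE 0.18). Cenpf, a large protein of the outer kinetochore, fell least: its values were 5.67, 5.53 and 5.66 on Day1, 4.48, 4.89 and 4.66 on Day2, 5.97, 5.54 and 5.28 on mimic and 5.44, 5.82 and 5.67 on antimiR arrays. Its change was −0.94 (SE 0.18, limma adjusted p = 4.33e-04), with the other 3 groups overlapping each other.

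All 5 tested spindle motors and microtubule proteins fell, with a median of −2.84. Kif2c, a kinesin that depolymerizes microtubules at the centromere, stood at 9.80, 9.86 and 9.82 on Day1 and at 6.05, 6.30 and 6.61 on Day2 arrays. It was at 10.15, 9.35 and 9.48 on mimic and at 9.41, 9.64 and 9.51 on antimiR arrays. Its fall was 11.4-fold (log2 change −3.51, SE 0.19, limma adjusted p = 3.00e-09). Kif11, the kinesin that pushes the spindle poles apart, had values of 7.63, 7.47 and 7.45 on Day1, 4.49, 5.35 and 5.26 on Day2, 7.86, 6.97 and 6.98 on mimic and 7.08, 7.25 and 7.45 on antimiR arrays. Day2 was again the only group far below the others, and Kif11 fell by 2.49 (SE 0.25, limma adjusted p = 1.78e-06). The chromokinesin Kif22 fell by 3.23 (SE 0.21), and the microtubule-associated Nusap1 and Ckap2 had changes of −2.84 (SE 0.19) and −2.69 (SE 0.18), which also passed.

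Of the 5 tested genes of the central spindle and cytokinesis 4 fell. Anln, anillin, the scaffold of the contractile ring, stood at 10.63, 10.58 and 10.39 on Day1 and 7.14, 7.77 and 7.73 on Day2 arrays. It was at 10.91, 10.04 and 9.99 on mimic and 9.96, 10.36 and 10.30 on antimiR arrays. The mimic values straddled the Day1 range, and the Day2 values were apart from all others. Anln was 7.92-fold lower on Day2 (log2 change −2.99, SE 0.23, limma adjusted p = 1.12e-07). Kif4 and Prc1, which work together on antiparallel microtubules of the central spindle, changed by −2.51 (SE 0.28) and −2.10 (SE 0.17), and Ect2, the RhoA exchange factor of the cleavage furrow, fell by 0.88 (SE 0.16). Kif23, a kinesin of the centralspindlin complex, is the member that did not pass and is described below with its 3 probes.

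All 7 tested genes of chromosome structure fell, with a median of −2.13. Cdca5, sororin, which protects cohesin on sister chromatids, stood at 7.94, 8.11 and 8.41 on Day1 and at 4.37, 4.88 and 5.49 on Day2 arrays. It was at 8.04, 7.25 and 7.22 on mimic and at 7.14, 7.53 and 7.39 on antimiR arrays, with every antimiR array below every Day1 array. Cdca5 was 9.45-fold lower on Day2 (log2 change −3.24, SE 0.27, limma adjusted p = 2.75e-07). Top2a, the topoisomerase that decatenates sister chromatids, fell by 2.79 (SE 0.26). The condensin I subunits Ncapd2 and Ncaph changed by −2.55 (SE 0.18) and −2.13 (SE 0.15), and Smc4, shared by both condensins, fell by 1.74 (SE 0.22). Smc2, its partner, was at least 2.05-fold lower, as it was above background on 0 Day2 arrays. Ncapg, the remaining condensin I subunit, had a dim probe, with 4.58, 4.87 and 4.96 on Day1, 4.29, 4.26 and 4.25 on Day2, 4.91, 4.38 and 4.73 on mimic and 4.70, 4.84 and 4.73 on antimiR arrays. Its Day2 arrays were the lowest but all below background, which bounds its fall at 1.08-fold or more, and with arrays scaled to a common median its call was lost at a change of −0.46 (adjusted p = 0.0587, against 5.47e-04 to 0.0587 among all alternatives).

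The genes around the anaphase-promoting complex held the largest fall of all 47. Cdc20, which activates that complex at anaphase, stood at 11.61, 11.67 and 11.70 on Day1 and at 6.66, 7.29 and 7.35 on Day2 arrays. It was at 11.77, 11.26 and 11.32 on mimic and at 10.92, 11.52 and 11.46 on antimiR arrays. The Day2 arrays were more than 3 log2 units below every other array, and Cdc20 was 23.6-fold lower than on Day1 (limma adjusted p = 4.25e-10). All 5 tested genes of the group fell, with a median of −3.15. Cdca3, a trigger of mitotic entry, had values of 10.50, 10.62 and 10.55 on Day1, 6.59, 7.13 and 7.27 on Day2, 10.63, 10.63 and 10.53 on mimic and 10.41, 10.84 and 10.79 on antimiR arrays. Its Day1, mimic and antimiR arrays overlapped, and it fell by 3.57 (SE 0.16) on Day2. Espl1, separase, the protease that cuts cohesin, stood at 8.82, 8.61 and 8.88 on Day1, 5.36, 5.90 and 5.61 on Day2, 9.28, 7.79 and 7.72 on mimic and 7.63, 8.11 and 8.35 on antimiR arrays. Mimic replicate 1 was the highest array for Espl1 while the other mimic arrays lay below Day1, and its Day2 fall was 3.15 (SE 0.33). Pttg1, securin, which holds separase inactive, fell by 2.63 (SE 0.22). Ube2c, the ubiquitin-conjugating enzyme of the complex, was dim, with 4.95, 4.71 and 5.23 on Day1, 4.24, 4.24 and 4.35 on Day2, 4.98, 4.45 and 4.43 on mimic and 4.81, 4.80 and 4.92 on antimiR arrays. It was above background on 0 Day2 arrays and at least 1.21-fold lower (limma adjusted p = 0.00260).

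**Figure D3:**
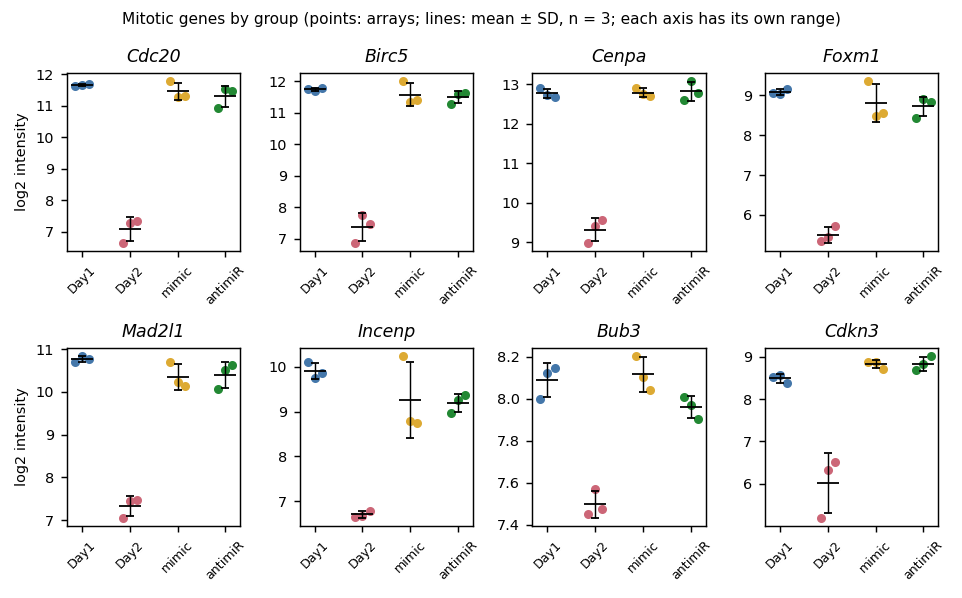
Log2 normalized intensity of 8 mitotic genes by group, with a point for each array and lines for the mean ± SD (n = 3 arrays); each vertical axis has its own range and does not start at 0. Cdc20, Birc5, Cenpa, Foxm1, Mad2l1, Incenp and Cdkn3 have their 3 Day2 arrays far below all others, while the whole range of Bub3 is less than 1 log2 unit.

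At 48 h with antimiR-206 the mitotic genes were higher than on Day2, the other group of that culture time. Of the 47 tested members 46 rose and 0 fell (26.5% of all genes rose and 24.9% fell), with a median log2 change of 2.49 against 0.03 for all genes. For 47 members every antimiR array was above every Day2 array, which was so for 32.3% of genes, and 39 rose at least 2-fold, against 7.71%. All 32 members above background on all 12 arrays rose, where 30.9% of genes so detected did, with a median of 2.80. Cdc20 rose 18.4-fold (log2 change 4.20, SE 0.20, limma adjusted p = 1.08e-09), Birc5 17.5-fold (SE 0.20 on the log2 scale) and Cdca3 12.9-fold (SE 0.16). Next in size was Cenpa, 11.3-fold higher (log2 change 3.49, SE 0.15). Ccna2 alone did not pass (0.37, SE 0.15, limma adjusted p = 0.0569, against 0.00562 to 0.167 among the alternatives), with 1 antimiR and 0 Day2 arrays above background. This comparison shares its Day2 arrays with the one before, so the sizes are not independent. Myotube markers moved the other way, with 6 of 6 tested lower in antimiR than in Day2 cells. Of 2 tested macrophage markers Cd14 was higher by 1.37 (SE 0.14, limma adjusted p = 3.02e-06) and Csf1r did not pass, and of 3 tested osteoblast markers 2 were lower. The part of these markers in the difference was not tested.

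Where the 48 h antimiR arrays stood relative to the 24 h Day1 arrays was described with the same fit, in which both time and treatment differ. Of the 47 members 2 fell and 1 rose, where 9.78% of genes fell and 12.9% rose. Cdca8 was lower by 0.67 on the log2 scale (9.40 ± 0.17 against 10.07 ± 0.13, SD, n = 3; limma adjusted p = 0.0437) and Cdca5 by 0.80 (7.35 ± 0.20 against 8.15 ± 0.24, adjusted p = 0.0486). The member that rose was Kif23 by its brightest probe. A further 6 had an unadjusted p under 0.05, namely Aurka, Aurkb, Incenp, Cenph, Ckap2 and Espl1, with log2 estimates of −0.48 to −0.74. Estimates were negative for 41 of the 47, with a median of −0.28 against 0.01 for all genes. For 26 members the antimiR arrays lay entirely below the Day1 arrays, against 23.2% of genes. The median member was −0.44 from its Day1 mean on antimiR replicate 1, −0.17 on replicate 2 and −0.18 on replicate 3. Genes without a call are not thereby shown to be equal: Cenpa differed by 0.05 with a 95% interval of −0.27 to 0.37, and Cdc20 by −0.36 with an interval of −0.79 to 0.07. The number of calls moved with single arrays. It was 16 without mimic replicate 1 (14 lower, where 16.4% of genes were, and 2 higher, where 18.8% were). It was 0 by limma without any of Day1 replicates 1, 2 and 3 or antimiR replicate 1, where 18%, 8.16%, 6.67% and 6.07% of all genes were called in either direction. It was 1 without Day2 replicate 2, antimiR replicate 2 or antimiR replicate 3, where 19.4%, 15.6% and 15.2% were.

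**Figure D4:**
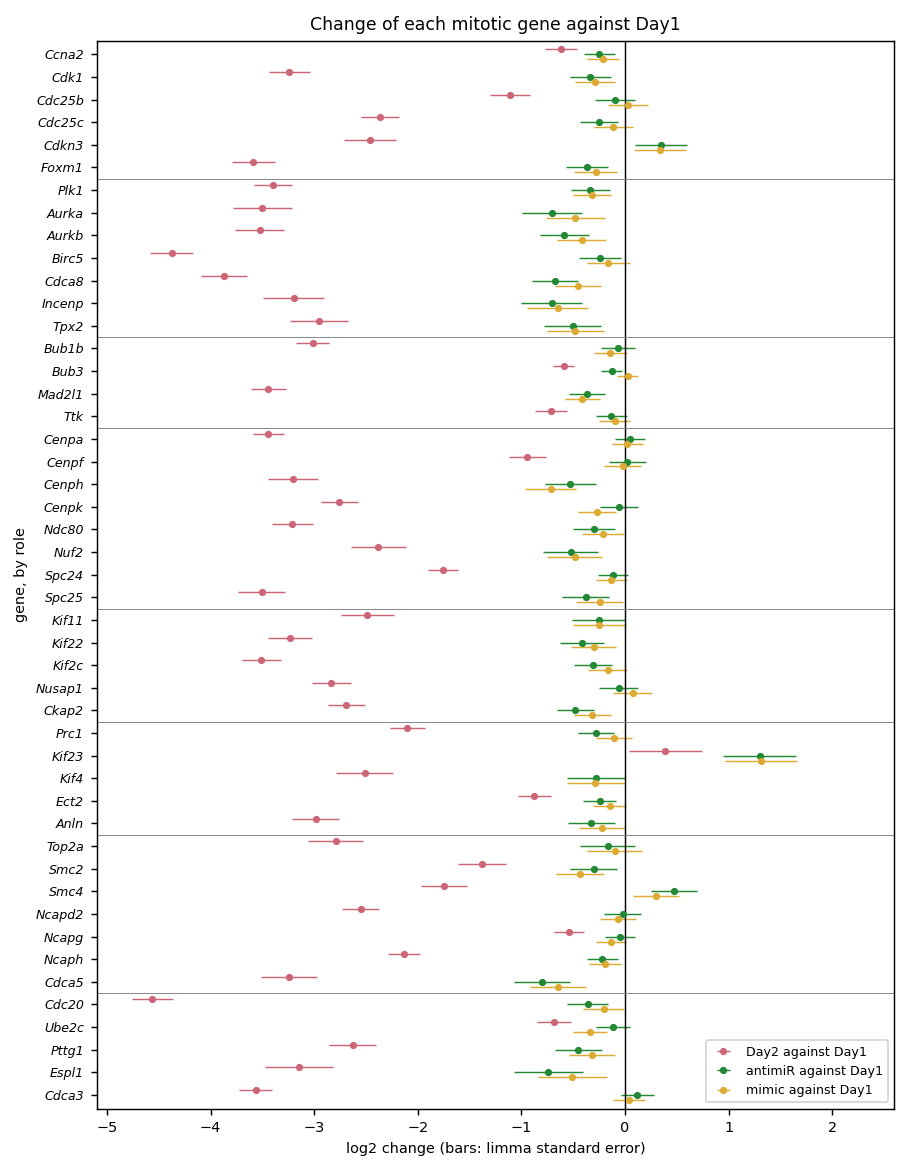
Log2 change of each of the 47 mitotic genes against Day1, with bars for the limma standard error, for Day2, antimiR and mimic; genes are in rows by role and the horizontal axis is in log2 units. Day2 estimates lie between −4.56 and 0.39, while antimiR and mimic estimates lie between −0.80 and 1.31, mostly just left of 0.

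Between the mimic and Day1 at 24 h few mitotic genes were called when all arrays were used, which does not show the others to be equal. Of the 47 members 1 rose, Kif23, and 0 fell in limma's test, where 4.38% of genes rose and 4.08% fell, and 5 had an unadjusted p under 0.05. The median log2 change was −0.22 against 0.00 for all genes, with negative estimates for 39 members. The call of Kif23 was lost, leaving 0, when any other array was left out except antimiR replicate 1 and mimic replicate 1. In the settings that lost it, 0.263% to 6.32% of all genes were called in either direction. Of the 47 members 2, Mad2l1 and Cenph, were lower on every mimic array than on any Day1 array, where 13.1% of genes were. Cdkn3 alone was higher, where 11.5% were. Mad2l1 was barely apart, at 10.702 on mimic replicate 1 against 10.7023 on Day1 replicate 1. The mimic arrays disagreed with each other: the median member stood 0.20 above its Day1 mean on mimic replicate 1 and −0.47 and −0.44 from it on replicates 2 and 3. The median SD of the members was 0.37 in the mimic group, against 0.10 in Day1, 0.25 in Day2 and 0.20 in antimiR.

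Without mimic replicate 1, 25 members fell and 2 rose against Day1, where 19.5% of genes fell and 18.2% rose, and the median was −0.42. Mitotic kinases and passenger genes stood at the front, with 6 of 7 lower and a median of −0.75. Incenp, at 10.10, 9.76 and 9.86 on Day1 and 8.79 and 8.74 on mimic replicates 2 and 3, fell 2.20-fold (SE 0.13 on the log2 scale, limma adjusted p = 3.53e-06). On mimic replicate 1 it stood at 10.24, above the Day1 range, and with all 3 arrays its change was −0.65 (adjusted p = 0.160). On Day2 arrays Incenp was at 6.65, 6.68 and 6.79 and on antimiR arrays at 8.98, 9.25 and 9.37. Espl1 fell 2.02-fold, Aurka by 0.92 and Cdca5 by 0.92 on the log2 scale without that array, and Cenph by 0.91. With it the 3 had changes of −0.51, −0.48 and −0.65, and Cenph −0.72 (limma adjusted p = 0.0749). The members that rose were Kif23 and Smc4, the latter by 0.62 (SE 0.16, adjusted p = 0.00488) at its brightest probe. The other kept Smc4 probes, ILMN_1235467 and ILMN_2709097, were instead below their Day1 means on mimic replicates 2 and 3. For ILMN_1235467, which was dim, both arrays lay below the Day1 range, and for ILMN_2709097 only replicate 2 did. Cenpa was at −0.04 (SE 0.15, adjusted p = 0.876), Bub3 at −0.02 (SE 0.11) and Cdca3 at 0.02 (SE 0.16). The cause of mimic replicate 1's position was not tested, nor why mimic replicates 2 and 3 lay with the antimiR arrays across all genes.

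Kif23, which encodes the kinesin MKLP1, gave opposite answers by probe. The brightest, ILMN_1250752, annotated to the cDNA AK076271, was at 9.73, 9.91 and 10.25 on Day1, 10.69, 10.42 and 9.96 on Day2, 10.23, 11.72 and 11.88 on mimic and 11.66, 10.92 and 11.21 on antimiR arrays. By that probe Day2 overlapped Day1 (0.39, SE 0.35, limma adjusted p = 0.367), antimiR was 2.46-fold above Day1 (adjusted p = 0.0199) and the mimic 2.49-fold (adjusted p = 0.0411). The other probes, ILMN_1220121 and ILMN_2923463, are annotated to the Kif23 transcript NM_024245. ILMN_2923463 stood at 9.69, 9.93 and 9.68 on Day1, 5.51, 6.33 and 6.17 on Day2, 9.95, 9.08 and 9.17 on mimic and 8.87, 9.33 and 9.28 on antimiR arrays. Its Day2 arrays were far below all others, like those of the other members. Tested among all 19809 kept probes, it fell by 3.76 from Day1 to Day2 (SE 0.24) and ILMN_1220121 fell by 3.80 (SE 0.33). Against Day2 the antimiR arrays were higher by 3.16 and 3.05 at these probes and by 0.91 at the brightest. The rises of Kif23 against Day1 thus hold for 1 of its 3 probes.

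**Figure D5:**
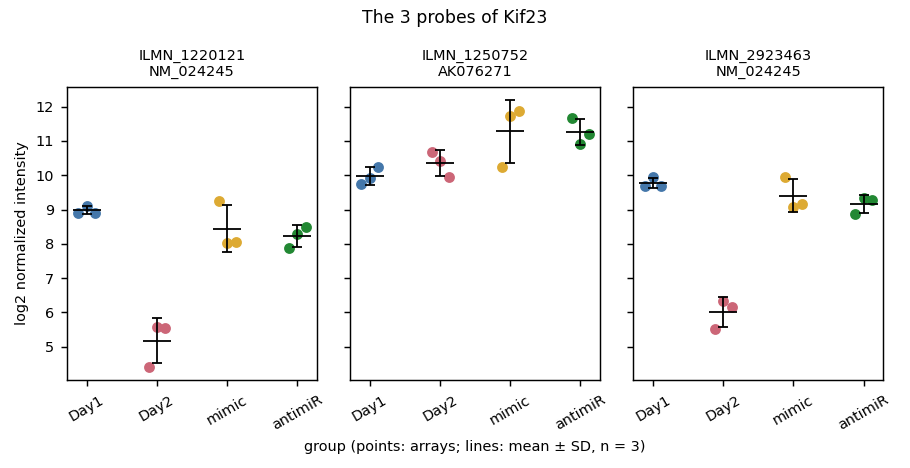
Log2 normalized intensity of the 3 Kif23 probes by group, with a point for each array and lines for the mean ± SD (n = 3); the vertical axis is shared and does not start at 0. The 2 probes annotated to NM_024245 are low on the Day2 arrays alone, while the AK076271 probe is not, and is highest on mimic replicates 2 and 3 and the antimiR arrays.

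Several probes were kept for 21 members, and for 20 of them all probes moved in the same direction from Day1 to Day2. Of the 77 kept member probes 74 fell, where 29.9% of all kept probes did. Cdk1 and Cenpf each had a dim further probe that did not pass (−0.22, adjusted p = 0.314, and −0.25, adjusted p = 0.160). Between antimiR and Day2 73 of the 77 probes rose, where 26.5% did, and Cdk1, Cenpf and Smc4 each had a probe without a call. Against Day1 the antimiR calls differed between probes for Birc5, Cdc20, Cdca8, Kif23 and Top2a, and 6 of the 77 probes fell, where 9.11% did. Top2a fell at its unchosen probes by 0.90 and 1.02, while its brightest probe did not pass (−0.17, adjusted p = 0.692). In the mimic comparison the sign of the estimate differed between probes for Cenpf, Kif23 and Smc4.

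A further list held 68 symbols for genes of mitosis that are not members. Some genes are in it under an older and a newer symbol: Casc5 and Knl1, Sgol1 and Sgo1, Sgol2 and Sgo2a. Of its 50 tested genes 48 fell from Day1 to Day2, where 29% of all genes did, with a list median of −2.20. From Day2 to antimiR 44 rose, where 26.5% of all genes did, with a list median of 1.91. Pbk, a mitotic kinase, fell by 3.41, Sgo1, shugoshin, which protects centromeric cohesion, by 3.37, and the kinesin Kif18b by 3.30. Sgo1 was above background on 2 of 3 Day2 arrays, others of the list on 1, and Depdc1a, Depdc1b, Knl1 and Nsl1 on 0. Falls of such genes rest at least in part on values at background. Against Day1, 2 fell and 1 rose with the mimic (19 at an unadjusted p under 0.05), where 4.08% of all genes fell and 4.38% rose. With antimiR 11 fell and 1 rose, where 9.78% of all genes fell and 12.9% rose. The gene that rose in both was Cenpp, of the inner kinetochore, by 0.39 and 0.51. Without mimic replicate 1 the mimic comparison had 39 lower and 1 higher, where 19.5% of all genes fell and 18.2% rose.

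Of 14 tested condensin II and cohesin genes 8 fell and 0 rose on Day2, where 29% of all genes fell and 28.2% rose. Their median was −0.55, with 10 at an unadjusted p under 0.05. The largest falls were those of the condensin II subunits Ncapg2 (−2.54, SE 0.23) and Ncapd3 (−1.61, SE 0.21) and the cohesin acetyltransferase Esco2 (−2.42, SE 0.28). Ncapg2 was above background on 2 of 3 Day2 arrays. In antimiR against Day2 10 of the 14 rose and 0 fell, with 11 at an unadjusted p under 0.05, where 26.5% of all genes rose. In both comparisons with Day1 0 passed, with 1 at an unadjusted p under 0.05 for the mimic and 2 for antimiR. Without mimic replicate 1, 3 of the 14 fell and 0 rose with the mimic (5 at an unadjusted p under 0.05). The share that fell is near the 19.5% of all genes that did, and 18.2% of all genes rose. A list of subunits of the anaphase-promoting complex with its coactivator Fzr1 and the enzyme Ube2s had 6 of 14 lower and 1 higher, where 29% of all genes fell and 28.2% rose, and a median of −0.16. Anapc15 fell by 1.78, Ube2s, which extends ubiquitin chains and was above background on 1 of 3 Day2 arrays, by 1.15 and the scaffold subunit Anapc5 by 0.98, while Anapc7 rose by 0.83. From Day2 to antimiR 7 rose and 2 fell, where 26.5% of all genes rose and 24.9% fell. Against Day1 0 passed with the mimic (3 at an unadjusted p under 0.05) and 1 rose with antimiR, where 12.9% of all genes did. Without mimic replicate 1 the mimic comparison had 2 lower and 1 higher, where 19.5% of all genes fell and 18.2% rose.

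Of 16 tested regulators that act at CHR, CCAAT-linked or E2F elements or on CDKs, 6 rose and 6 fell between Day1 and Day2, with a median of 0.02, so that neither share is far from those of all genes (28.2% and 29%). Cdkn1a, the CDK inhibitor p21, rose by 2.61 (SE 0.12), Rb1, the retinoblastoma protein, by 2.12 (SE 0.14) and E2f2 by 1.85 (SE 0.13). Tfdp2, Rbbp4 and E2f6 rose by 0.68, 0.60 and 0.32. Mybl2, B-MYB, the MuvB partner of dividing cells, fell by 3.25 (SE 0.37), Tfdp1, an E2F dimer partner, by 1.48, the RB family gene Rbl1, p107, by 1.37, E2f1 by 1.24, E2f3 by 1.17 and Lin54, the MuvB subunit that contacts DNA, by 0.80. Mybl2 was above background on 2 of 3 Day2 arrays. Between antimiR and Day2 5 of the 16 rose and 6 fell, where 26.5% of all genes rose and 24.9% fell. Against Day1, 2 fell with the mimic, where 4.08% of all genes did. With antimiR 1 rose and 1 fell against Day1, where 12.9% of all genes rose and 9.78% fell. Without mimic replicate 1, 11 fell and 1 rose with the mimic, where 19.5% of all genes fell and 18.2% rose. The median of the 16 was then −0.40.

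Whether the motifs go with the size of the fall was not tested, and the values are given as a description. The median log2 change from Day1 to Day2 was −2.79 over 31 tested members with a CHR match (range −4.56 to 0.39) and −2.80 over 8 without (−4.38 to −2.13). It was −2.69 over 29 members with a CCAAT match and −3.10 over 10 without. For the E2F letters it was −2.65 over 8 members with a match and −2.84 over 31 without. These medians use fitted values, also for members known only as bounds and for the brightest Kif23 probe. Of the tested members with a promoter in the table, 7 had a fitted change under 1 log2 unit in size. They were Bub3, Ncapg, Ube2c, Ttk, Ect2, Cenpf and Kif23. All 7 are among the 31 with a CHR match, as is Cdc20 with the largest fall. Ncapg, Ube2c and Ttk were above background on 0 Day2 arrays, so their changes are bounds. Ect2 and Cenpf were above background on 2 of 3 Day2 arrays, and the other kept Kif23 probes fell. These sizes thus cannot show whether a small fall goes with the motif. Birc5 (20.8-fold lower) has 0 matches to CHR or CCAAT in the printed window, and Bub3 (1.51-fold lower) has both.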

How the data were processed

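Total RNA of 12 samples was hybridised to Illumina mouse bead arrays, 3 in each of 4 groups taken from the sample labels. The deposited scanner table gives raw probe intensities on a linear scale with no background visibly subtracted. Beside each stands a detection score, deposited by the authors under a p-value header, which rises with intensity. The detection p was therefore taken as 1 minus that score. The authors' processed table holds log2 values that share nearly 1 distribution across arrays, made with lumi per the submitters' processing notes; Day2 replicates 2 and 3 of the scanner table match each other's column there. Genes were named from the platform annotation: 34885 probes have 1 symbol, 18 several and 10378 none, and of the first 34807 were found in RefSeq's gene table, with 0 symbols changed.

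From the intensities, background was corrected by normexp with negative controls inferred from the detection p (offset 16), followed by quantile normalization and log2. Probes with a detection p under 0.05 on at least 3 arrays were kept, and the kept probe with the highest mean stood for its gene. A model of 4 group means was fitted to all 10653 genes with limma 3.58.1 in R 4.3.3 (lmFit, eBayes with trend, 8 residual and 5.36 prior degrees of freedom), two-sided, with Benjamini-Hochberg adjustment over all genes and a threshold of 0.05. The number of arrays limits the precision. The fit was tested on simulated data.

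The members, the role groups, the 4 other gene lists and the marker lists were chosen with earlier results of these data known. Values on every array are given for the members with the largest and smallest Day2 change in each role group and the 3 largest changes in each other comparison. Of the other lists, the 3 largest changes and the called genes that go against the list's median are named. Alternatives were no background correction, scaling to a common median, the authors' values, no detection filter or detection on all 12 arrays, all kept probes, the mean over a gene's probes, only the arrays compared, array weights, a replicate block, and leaving out each array.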

Additional observations from a re-analysis of the deposited data

How the results depend on the processing

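From Day1 to Day2 the members called numbered 43 to 47 under every alternative with the common detection filter or none, and 31 of 32 with detection on all 12 arrays. Of all genes or probes tested, 17.6% to 66.5% were called in either direction in the former settings and 64.2% in the latter. Between antimiR and Day2 the members called numbered 45 to 47, where 16.8% to 64.5% of all genes or probes were called. With detection on all 12 arrays they numbered 32 of 32, where 57.9% of genes were called. The mimic comparison, with 1 call, is given with the share of all genes called in either direction in brackets. There were 0 calls with arrays scaled to a common median (0.235%), 0 with no detection filter (0.96%) and 0 with the mean over a gene's probes (6.78%). There were 0 with only the arrays compared (0.0282%), 2 with the authors' processed values (7.88%) and 34, of which 32 lower, with array weights (46.1%). In antimiR against Day1, with 3 calls, there were 0 with arrays scaled to a common median (1.89% of all genes) and 1 with no detection filter (8.97%). There were 5 with all kept probes (19.4% of probes) and 1 with the mean over a gene's probes (21.8% of genes). There were 24, of which 21 lower, with only the arrays compared (35.6%) and 17 with array weights (41.2%). Leaving out 1 array gave 46 to 46 calls from Day1 to Day2 (51.7% to 62.7% of all genes) and 45 to 47 between antimiR and Day2 (43.2% to 57.8%). It gave 0 to 27 for the mimic (0.263% to 37.7%) and 0 to 16 for antimiR against Day1 (6.07% to 35.2%). By the mean over its probes Kif23 turned to −2.39 (Day2 against Day1) and −0.019 (antimiR against Day1), since 2 of its 3 probes go the other way. Scaling to a common median moved the median of all genes by −0.10 from Day1 to Day2, by −0.04 in the mimic comparison, by 0.28 between antimiR and Day2 and by 0.17 between antimiR and Day1. With a replicate block the calls were 46, 45, 0 and 1 in the order Day2 against Day1, antimiR against Day2, mimic against Day1 and antimiR against Day1. Of all genes 55.1%, 48.3%, 0.498% and 16.6% were then called in either direction, in the same order. Deviations from the group means correlated at −0.55 to 0.17 over 18 pairs of samples with the same number, of which 3 were over 0.1. Over 36 pairs with different numbers they correlated at −0.35 to 0.48, with 12 over 0.1. With 3 arrays a group the deviations depend on each other, so they cannot show whether the numbers pair the samples. Other causes of these moves were not tested. Signal over background limits Ccna2, Ttk, Nuf2, Smc2, Ncapg and Ube2c, whose Day2 arrays were all below background and whose changes are bounds.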
